A study of Mus musculus with 4 samples.

Results

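miR-124, miR-9 and miR-128 are microRNAs (miRNAs), short RNAs that pair with messenger RNAs and lower their translation and stability. Of these, miR-124 and miR-128 are enriched in neurons. All of these miRNAs were measured, with the 5 array probes mmu-miR-124, mmu-miR-124*, mmu-miR-9, mmu-miR-9* and mmu-miR-128. The prefix mmu stands for mouse and is left out from here on. The probes were taken by exact name out of 705 mouse miRNA probes. A star marks the other arm of the same hairpin precursor. The hippocampus came from C57BL/6J mice, an inbred wild-type laboratory strain, collected directly after the animals had been trained in the Morris water maze, where a swimming mouse learns the place of a submerged platform. Good performers (2 arrays) were compared with poor performers (2 arrays). Both groups had been trained, so no array shows untrained tissue, and the labels state neither age nor sex. The series states 4 mice per group, and how they were shared between the arrays is not given, so the spread between arrays may be technical and does not stand for the spread between mice.

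miR-124 is made by mature neurons and lowers many transcripts of non-neuronal cells, among them that of the splicing regulator Ptbp1. The repressor REST keeps its genes silent outside neurons. The arms of the miR-9 hairpin act on partners of that circuit: miR-9 lowers Rest and miR-9* lowers its cofactor Rcor1, and miR-9* and miR-124 together lower Actl6a, a chromatin remodelling subunit that neural progenitors lose as they become neurons. miR-128 rises during brain development and limits the excitability of adult neurons, and mice without it in forebrain neurons have seizures.

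The mature sequences of 3 of the 5 probes are given here, from RefSeq (mouse assembly GRCm38.p6), because they show which target sites each miRNA can read. Capitals mark the seed, bases 2 to 8 from the 5′ end, which leads the pairing with a target.
miR-9 (miR-9-5p): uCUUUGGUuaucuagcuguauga
miR-9* (miR-9-3p): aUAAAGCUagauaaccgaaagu
miR-128 (miR-128-3p): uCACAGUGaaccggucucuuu
The 3 seeds differ, and none of them is shared with another of the 1679 mature mouse miRNA names searched. The arms of miR-9 thus carry different seeds, although they are cut from one precursor. The first 6 bases of the miR-128 seed also lie within the seeds of miR-27a and miR-27b, 1 base further from the 5′ end, as bases 3 to 8 (in capitals).
miR-27a (miR-27a-3p): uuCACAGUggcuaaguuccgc
miR-27b (miR-27b-3p): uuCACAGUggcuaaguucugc

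The hairpins show why a probe for a mature arm cannot say which gene it came from. Capitals mark the mature arms as RefSeq gives them, with the loop between them in lower case.
Mir9-1, chr3:88215598-88215686, strand +: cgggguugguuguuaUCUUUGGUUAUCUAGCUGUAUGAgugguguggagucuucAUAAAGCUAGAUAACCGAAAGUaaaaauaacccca
Mir9-2, chr13:83738814-83738885, strand +: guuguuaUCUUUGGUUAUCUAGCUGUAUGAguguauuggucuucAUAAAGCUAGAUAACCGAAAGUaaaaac
Mir9-3, chr7:79505264-79505353, strand +: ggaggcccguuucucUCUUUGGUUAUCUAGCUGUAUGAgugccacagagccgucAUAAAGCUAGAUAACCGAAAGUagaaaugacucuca
Mir128-1, chr1:128202361-128202430, strand +: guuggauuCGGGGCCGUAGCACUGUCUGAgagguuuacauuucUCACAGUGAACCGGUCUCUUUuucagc
Mir128-2, chr9:112118636-112118711, strand -: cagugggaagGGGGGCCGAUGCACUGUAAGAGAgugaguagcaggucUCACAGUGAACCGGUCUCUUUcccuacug
All 3 Mir9 hairpins carry the same miR-9 arm and the same miR-9* arm and differ in their flanks and loops. Both Mir128 hairpins carry the same miR-128 arm. In the RefSeq gene table of that assembly each Mir9 hairpin lies inside a long non-coding RNA gene (Gm3764, C130071C03Rik and Mir9-3hg). Mir128-1 lies inside R3hdm1 and Mir128-2 inside Arpp21, both protein-coding. Of the 3 genes for miR-124, Mir124a-1 and Mir124a-2 lie inside the non-coding host genes Mir124a-1hg and Mir124-2hg, and Mir124a-3 lies inside no other listed gene. The array names no genome build, so these positions are those of the RefSeq tables and not of the probes.

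Each array held 3 spots per probe. Every spot of the 5 probes carried the flag 0, the deposited mark of a detected spot, and none was near the scanner ceiling of 65535, the highest being 23726. Blank spots had a mean of 63.0 to 64.4 raw intensity units per array. An array detected 310 to 330 probes, and 316 entered the test. The signal of different probes depends on their sequence and cannot be set against each other as abundance, so every comparison here is of one probe across arrays. The added RNA standards (5 spike-in controls) had higher group means in good performers before normalization, by 0.05 to 0.26 log2 units, and for 3 of them the arrays of the groups did not overlap. These controls were added in the laboratory, so raw differences between the groups stand beside a difference in brightness, and its part in them was not tested.

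On the raw scale miR-124 was bright on every array and a little brighter in good performers. Its 3 spots read 22982, 22507 and 23726 on good performers replicate 1 and 22622, 21851 and 23493 on replicate 2. They read 21697, 20820 and 21796 on poor performers replicate 1 and 19498, 20284 and 21511 on replicate 2. Array means were 23072 and 22655 in good and 21438 and 20431 in poor performers, so the groups did not overlap and the ratio of group means was 1.09. Higher raw means without overlap were found for 37.0% of the tested probes, and among the members for miR-124, miR-9* and miR-128. Each of the 3 spots, followed by itself over the 4 arrays, was brighter on both good-performer arrays, which held for 15.8% of all tested probes.

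Quantile normalization, which gives every array the same set of values, removed that raw difference. The normalized log2 intensity of miR-124 was 14.53 and 14.33 on the good-performer arrays and 14.46 and 14.39 on the poor-performer arrays. Both extremes thus came from good performers, and the group means were 14.43 ± 0.14 (SD, n = 2) and 14.42 ± 0.049 (SD, n = 2). The log2 fold change, good over poor, came to 0.01 ± 0.08 (SE), with a limma adjusted p of 0.979. Its 95% interval ran from -0.21 to 0.23, a fold of 0.867 to 1.17, so on this scale a difference within that range was not excluded. The interval is not a limit of detection for the adjusted test. Quantile normalization set the good-performer arrays further apart than their raw means of 23072 and 22655. The log2 fold change was 0.11 ± 0.06 (SE) with 75th percentile scaling, 0.08 ± 0.05 with cyclic loess and 0.13 ± 0.05 without normalization. It did not pass in any of them (limma adjusted p = 0.328, 0.499 and 0.216).

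miR-124*, the other arm of that hairpin, was close to the blank spots, at 1.58 to 1.70 times their mean. Its spots read 110, 92 and 104 on good performers replicate 1 and 117, 105 and 106 on replicate 2. They read 109, 97 and 108 on poor performers replicate 1 and 104, 100 and 99 on replicate 2. The groups overlapped, and the spread between the 3 spots of one array, up to 8.99% of their mean, was larger than the 2.76% between the raw group means. After normalization the arrays stood at 6.68 and 6.74 in good and 6.75 and 6.67 in poor performers. The log2 fold change came to -0.0019 ± 0.05 (SE), with a limma adjusted p of 1 and a 95% interval of -0.13 to 0.12, and the offset added to the intensities shrinks changes of a probe this dim.

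**Figure D1:**
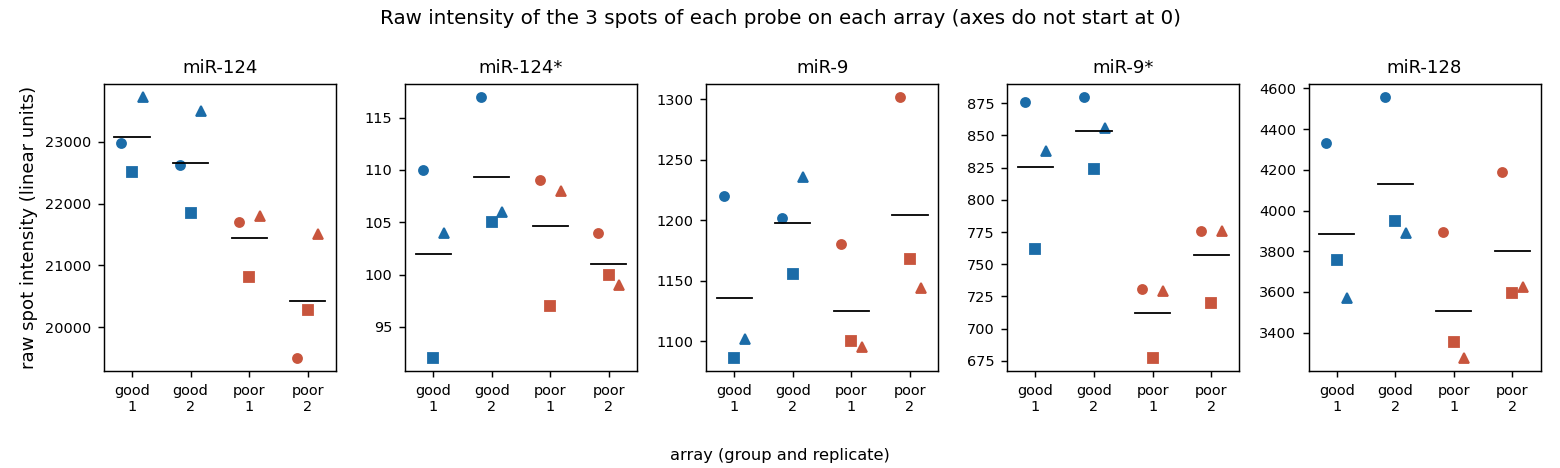
Raw spot intensity (linear units, vertical axis, not starting at 0) of the 5 probes on the 4 arrays (horizontal axis). Each symbol shape is the same spot position on every array and each line is the mean of the 3 spots. miR-124, miR-9* and miR-128 have higher array means on both good-performer arrays, while miR-9 and miR-124* overlap between the groups.

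miR-9 had nearly the same raw signal in both groups. Its spots read 1220, 1086 and 1102 on good performers replicate 1 and 1202, 1156 and 1236 on replicate 2. They read 1180, 1100 and 1095 on poor performers replicate 1 and 1302, 1168 and 1144 on replicate 2. The array means of 1136 and 1198 in good and 1125 and 1205 in poor performers overlapped, and the group means differed by 0.186%. No spot position separated the groups.

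After normalization miR-9 was lower on both good-performer arrays, at 10.14 and 10.15 against 10.20 and 10.22 log2 units. The SD between arrays was 0.0080 in good and 0.017 in poor performers (n = 2). The groups did not overlap, which was so for 50.6% of the tested probes. The log2 fold change was -0.07 ± 0.03 (SE), with a 95% interval of -0.14 to 0.01, and did not pass (limma adjusted p = 0.282). It was 0.0021 without normalization and 0.00012 in the authors' normalized table after centring each array, so the sign of this value rests on the scaling.

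miR-9*, cut from the same precursors, was brighter in good performers on the raw scale. Its spots read 876, 762 and 838 on good performers replicate 1 and 880, 824 and 856 on replicate 2. They read 731, 677 and 729 on poor performers replicate 1 and 776, 720 and 776 on replicate 2. The array means of 825 and 853 lay above those of 712 and 757, a ratio of group means of 1.14. Higher raw means without overlap were found for 37.0% of the tested probes. All 3 spot positions separated the groups in that direction, which held for 15.8% of the tested probes.

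The normalized levels of miR-9* were 9.66 and 9.64 in good and 9.56 and 9.61 in poor performers, again without overlap. Higher normalized levels without overlap were found for 23.1% of the tested probes. The log2 fold change was 0.07 ± 0.03 (SE), a fold of 1.05 with a 95% interval of 0.987 to 1.12, and did not pass (limma adjusted p = 0.314). It was above 0 in all 14 alternatives with the 4 arrays, from 0.03 in the authors' normalized table to 0.19 without normalization. The other filters, the other variance model and the replicate block reuse the same levels, so they could only repeat 0.07. None of the 14 passed, and the lowest limma adjusted p was 0.0665, with 75th percentile scaling.

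The arms of miR-9 can be compared within each array, where any scaling of the whole array cancels. The question is whether the arms moved unequally between the groups, not which arm was the more abundant. On the raw log2 scale miR-9 minus miR-9* was 0.46 and 0.49 in good performers and 0.66 and 0.67 in poor performers. The difference between groups was -0.19, and it exceeded the spread within each group (SD 0.020 and 0.0073, n = 2). The 4 arrays thus fell into 2 separate pairs that followed the group labels, as they did on the raw scale for 14 of the 35 arm pairs (40.0%).

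On the normalized scale the arm difference of miR-9 was 0.48 and 0.51 in good and 0.64 and 0.62 in poor performers, a change of -0.14. In the authors' normalized intensities it was 0.39 and 0.51 against 0.62 and 0.53, a change of -0.13. The exact permutation test gave p = 0.333 (two-sided) in each of the 3 versions, the smallest value it can give with 2 arrays against 2, so this test cannot go below 0.05 here. The change kept its direction in all 11 alternatives run with the 4 arrays (-0.20 to -0.11) and without any 1 array (-0.16 to -0.12). These 11 are not separate checks. Scaling by the 75th percentile, by the spike-ins or not at all gave the same -0.19, as the scaling of an array cancels. The authors' values gave -0.13 with or without centring, and the replicate block could only repeat -0.14. Spike-in control 5, at 9.77 to 10.01 log2 units before normalization, was 0.05 higher in good performers, and spike-in control 4, at 10.99 to 11.13, was 0.09 higher. The part of brightness in the arm difference was not tested.

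Unequal changes of arms were common on these arrays. Both arms were tested for 35 hairpins, and for 14 of them, 40.0%, the arm difference did not overlap between the groups. The count was also 14 on the raw scale. By absolute size miR-9 ranked 5 of 35 on both scales. Of the other pairs miR-466f (-0.56), miR-574 (-0.43), miR-125a (0.33) and miR-744 (-0.30) had larger changes on the normalized scale, and the median absolute change was 0.05. For miR-124 the arm difference was 7.85 and 7.59 in good and 7.70 and 7.71 in poor performers, a change of 0.01 with overlap on the normalized scale (exact permutation p = 1, two-sided). On the raw scale it was 7.82 and 7.69 against 7.68 and 7.66, a change of 0.09, and in the authors' normalized intensities 7.81 and 7.70 against 7.70 and 7.69, a change of 0.06. In those 2 versions the groups did not overlap (exact permutation p = 0.333 in each, two-sided). On the normalized scale the change was -0.12 without good performers replicate 1 and 0.14 without good performers replicate 2.

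**Figure D2:**
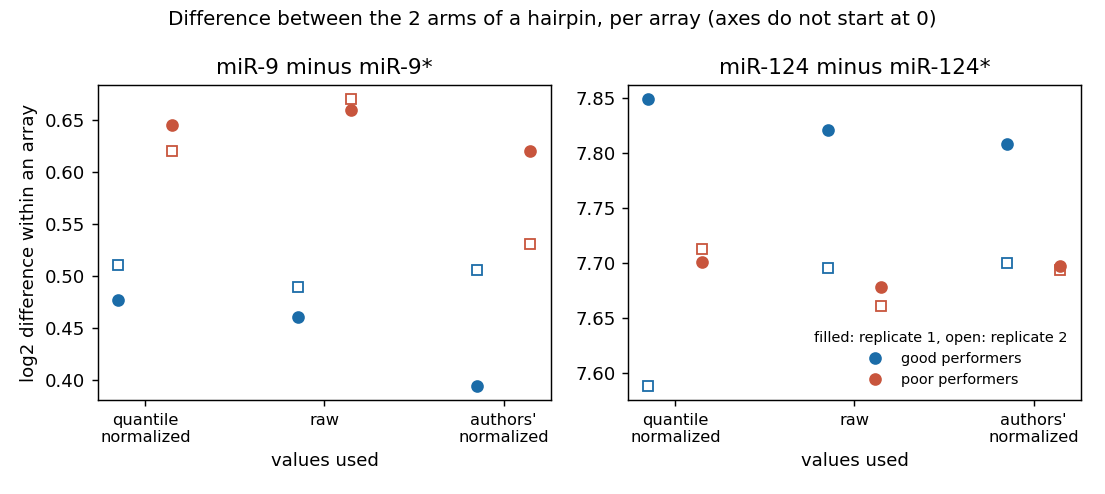
Log2 difference between the arms of a hairpin within each array (vertical axis, not starting at 0), for quantile-normalized, raw and the authors' normalized values (horizontal axis). For miR-9 both good-performer arrays (blue) lie below both poor-performer arrays (orange) in each version, 0.46 and 0.49 against 0.66 and 0.67 on the raw scale. For miR-124 the groups overlap in the quantile-normalized version and not in the other two.

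**Figure D3:**
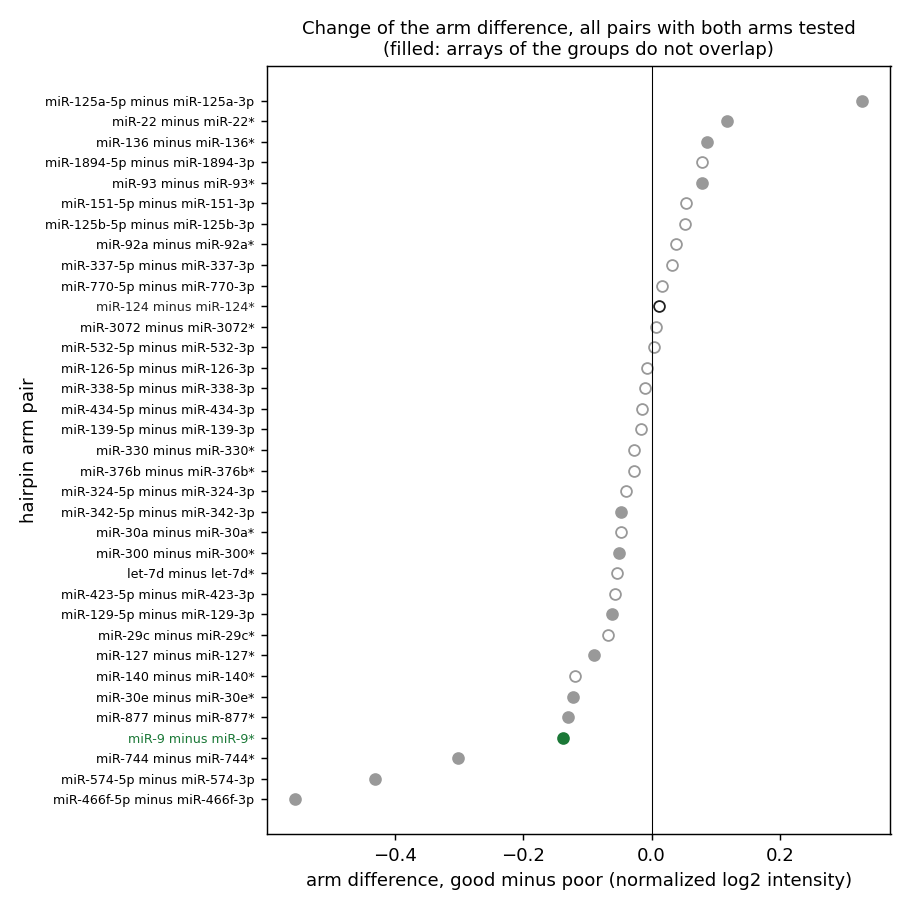
Change of the arm difference between good and poor performers (normalized log2 intensity, horizontal axis) for the 35 hairpins with both arms tested. Filled points mark the 14 pairs whose arrays do not overlap between groups; miR-9 is at -0.14 and miR-124 at 0.01.

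With quantile normalization miR-128 had the largest log2 fold change of the 5 probes. That of miR-9* was higher without normalization, with 75th percentile, cyclic loess or spike-in scaling, and in the authors' normalized table with or without centring. The spots of miR-128 read 4333, 3757 and 3569 on good performers replicate 1 and 4559, 3948 and 3888 on replicate 2. They read 3895, 3356 and 3274 on poor performers replicate 1 and 4188, 3597 and 3625 on replicate 2. The first spot position was the brightest of the 3 on every array, so most of the spread between spots, 8.77% to 10.2% of the mean, belonged to the position. The array means were 3886 and 4132 in good and 3508 and 3803 in poor performers, without overlap, as for 37.0% of the tested probes in that direction. Of the 3 spot positions, 2 separated the groups, and no share over all probes was taken for that count.

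The normalized level of miR-128 was 12.01 and 11.97 in good and 11.82 and 11.88 in poor performers, with group means of 11.99 ± 0.025 (SD, n = 2) and 11.85 ± 0.041 (SD, n = 2). The log2 fold change was 0.14 ± 0.04 (SE), or 1.10-fold, with a 95% interval of 1.03 to 1.18. Its unadjusted limma p was 0.0162, and it did not pass adjustment over the 316 probes (adjusted p = 0.154). Both good-performer arrays lay above both poor-performer arrays, which held for 23.1% of the tested probes. With cyclic loess the value was 0.06, with spike-in scaling -0.0091 and with the authors' normalized intensities 0.02. Under spike-in scaling the median of all tested probes was -0.11. Relative to the median of all tested probes in the same setting, miR-128 was higher in all 14 alternatives, by 0.06 to 0.17. Several of these relative values coincide, since a shift of a whole array cancels against the median.

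The seed relatives of miR-128 had the opposite sign. miR-27a had a log2 fold change of -0.07 ± 0.05 (SE; limma adjusted p = 0.502) and miR-27b of -0.07 ± 0.05 (SE; limma adjusted p = 0.567). The arrays of the groups overlapped for both.

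No member passed the test, at an adjusted p under 0.05, against 16 of the 316 tested probes (5.06%), 10 higher and 6 lower in good performers. At an unadjusted p under 0.05 there was 1 member, miR-128, beside 66 of all tested probes (20.9%). Of the 5 members, 3 did not overlap between groups, near the share of all tested probes. The median log2 fold change was 0.01 for the members and -0.01 for all tested probes. Their precision was like that of the whole array, with a median standard error of 0.04 for the members and 0.04 for all. With quantile normalization miR-128 and miR-9* had positive values, miR-9 a negative one, and both arms of miR-124 lay at 0.01 or nearer to 0. The signs of miR-9 and of both arms of miR-124 depended on the scaling, and without normalization all 5 values were above 0. That of miR-128 turned only with spike-in scaling (-0.0091), and that of miR-9* in none of the 14 alternatives with all arrays.

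**Figure D4:**
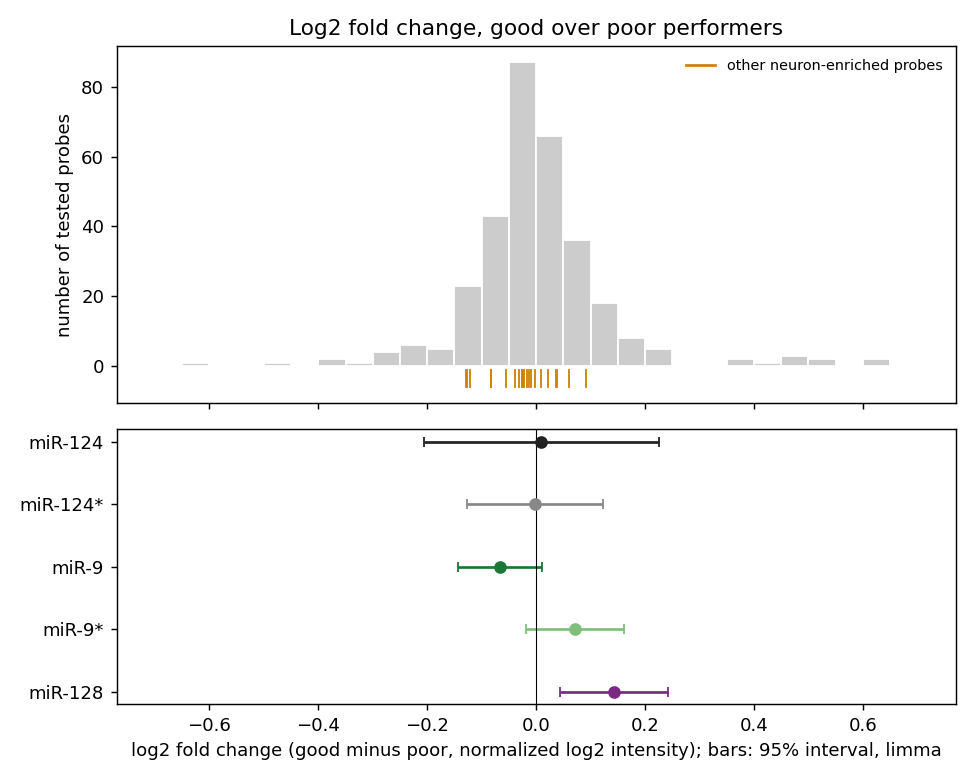
Upper panel, number of tested probes (vertical axis) by log2 fold change, good minus poor (horizontal axis), with orange ticks for the 22 other neuron-enriched probes. Lower panel, the 5 probes with their 95% intervals from limma: only the interval of miR-128 lies above 0, and its adjusted p was 0.154.

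The log2 ratios of good over poor performers in the authors' deposited table were 0.03 for miR-9* and 0.02 for miR-128. It was -0.06 for miR-124, -0.10 for miR-9 and -0.12 for miR-124* in the same authors' deposited table. The median of all 383 probes there was -0.08, so the first 3 of these stood above it and the last 2 below. Their normalized intensity of miR-128 was 3691 on both good-performer arrays and 3642 and 3643 on the poor-performer arrays. The raw array means of miR-128 were further apart, at 3886 and 4132 in good and 3508 and 3803 in poor performers. The near equality of replicates thus belongs to the normalized values and does not measure how well the arrays agreed. Their normalized intensity of miR-124 was 22556 and 20912 against 23813 and 21612, with overlap between the groups. In these normalized intensities miR-124*, miR-9 and miR-128 did not overlap between the groups, as was so for 69.3% of the tested probes.

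The alternatives did not give any member a call. Relative to the median of all tested probes, miR-128 and miR-9* were higher in all 18 settings other than the one reported, the 4 without 1 array included. miR-9 was lower in all 18. These are not 18 separate checks, because a shift of a whole array cancels against the median. For miR-128 the relative value was 0.10 with 75th percentile scaling, spike-in scaling and no normalization alike. The variance model and the replicate block could only repeat the reported 0.15. miR-124 was higher in the 14 with all arrays. Its quantile-normalized log2 fold change was -0.09 without good performers replicate 1 and 0.11 without good performers replicate 2. It was 0.04 without poor performers replicate 1 and -0.03 without poor performers replicate 2.

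**Figure D5:**
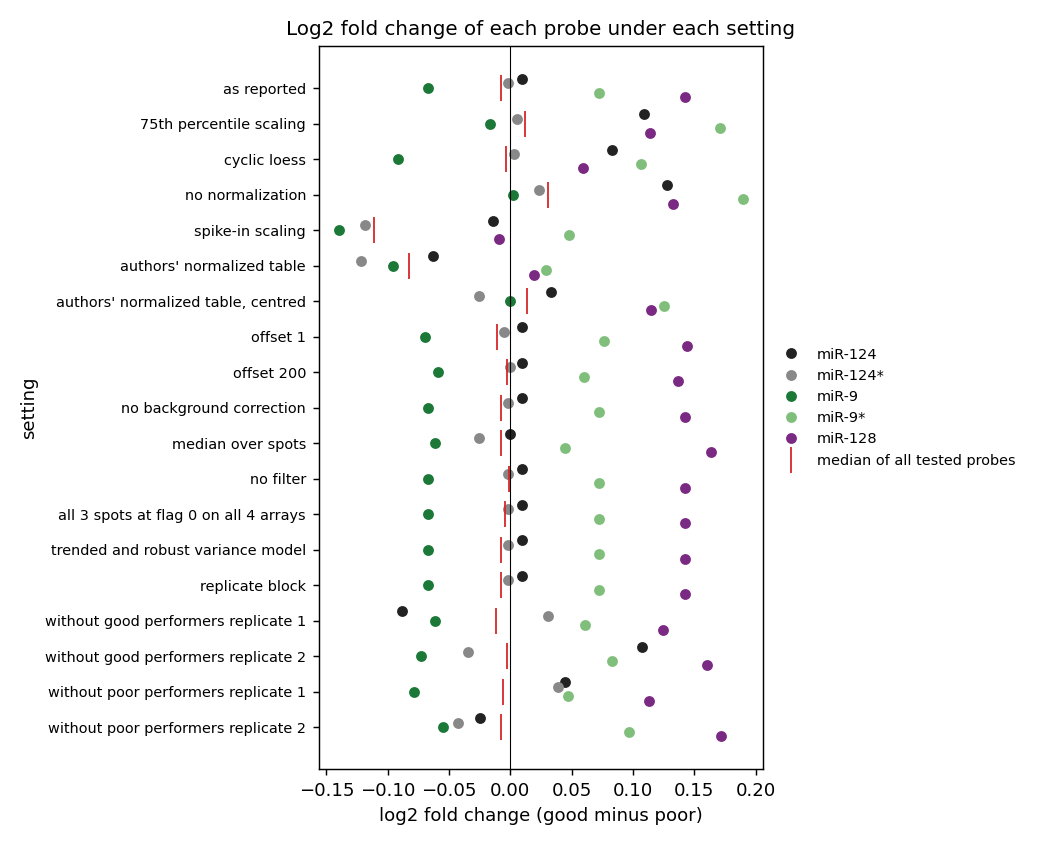
Log2 fold change, good minus poor (horizontal axis), of the 5 probes (points) and the median of all tested probes (red bars) in each setting (vertical axis). miR-9* and miR-128 lie to the right of the red bar and miR-9 to its left in every setting, while the sign of miR-124 and miR-124* varies. Settings that only shift whole arrays keep the same distances to the red bar.

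Other neuron-enriched miRNAs give the setting for these values. Of 26 on a list of such miRNAs, all were on the array and 22 were tested, and miR-135a, miR-182, miR-183 and miR-504 were too dim. None passed in either direction (limma), against 5.06% of all tested probes. At an unadjusted limma p under 0.05 there were 2, miR-132 and miR-328, against 20.9% of all tested probes. The mean in good performers was higher for 6 and lower for 16, and it was higher for 143 of all 316 tested probes. The median log2 fold change was -0.02, against -0.01 for all tested probes, and 6 of the 22 (27.3%) did not overlap between groups, against 50.6% of all tested probes. The brightest, miR-138, which keeps dendritic spines small, had -0.06 ± 0.04 (SE). miR-132, which neuronal activity induces and which promotes dendrite growth, had 0.09 ± 0.03 (SE; limma adjusted p = 0.209). miR-328 had -0.13 ± 0.03 (SE; limma adjusted p = 0.143), and miR-485, a regulator of synapse formation, had -0.13 ± 0.08 (SE). In this bulk tissue a smaller number of neurons and less of a miRNA per neuron cannot be told apart.

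The probes whose pattern over the 4 arrays lay nearest to each member were found by the root mean square difference of their deviations from their own means, among 315 other tested probes. For miR-128 these were miR-882, at 0.0094 log2 units, the probe shared by miR-466a-3p and its relatives, at 0.018, and miR-1186, at 0.018. For miR-9 they were miR-126-3p (0.012), let-7g (0.014) and miR-675-3p (0.014), and for miR-9* miR-19b (0.014), miR-669l (0.015) and miR-30a* (0.015). For miR-124 they were miR-384-5p (0.019), miR-689 (0.020) and miR-1899 (0.021), and for miR-124* miR-326 (0.016), miR-1186b (0.017) and miR-149 (0.019). Neither arm of a hairpin was among the nearest probes of the other.

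Markers of other hippocampal cells were set beside these values. The mean log2 level of the 4 oligodendrocyte probes, all tested, was 8.45 to 8.47 on the good-performer arrays and 8.55 to 8.58 on the poor-performer arrays. Of these, miR-219, which drives oligodendrocyte maturation, fell by 0.27 (limma adjusted p = 0.025). The others had log2 fold changes of -0.07 (miR-338-3p), -0.09 (miR-338-5p) and 0.03 (miR-23a, the brightest). The 4 astrocyte probes, with miR-29a the brightest, had mean levels of 11.17 to 11.20 in good and 11.12 to 11.14 in poor performers. None of them passed (limma; 2 at an unadjusted p under 0.05). Such separation was not particular to these lists. List means also did not overlap for other neuron-enriched probes (7.74 to 7.75 in good, 7.76 to 7.78 in poor performers) and red blood cells (6.95 to 6.96 and 6.99 to 7.06). The same held for choroid plexus and ependyma (7.100 to 7.112 and 7.115 to 7.140), while the immune and vessel lists overlapped. Tested probes numbered 4 of 8 for microglial and immune cells (brightest miR-21), 5 of 7 for vessels (miR-126-5p), 5 of 10 for choroid plexus and ependyma (miR-204) and 2 of 3 for red blood cells (miR-451). None of these passed (limma; unadjusted p was under 0.05 for 2 vessel probes and for none of the others). Over all tested probes 20.9% had an unadjusted limma p under 0.05. The part of cell composition in the members' values was not tested.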

How the data were processed

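Total RNA of the hippocampus was labelled with Cy5 and each sample hybridised alone, per the labels' protocols. The authors deposited raw spot intensities on a linear scale, a flag score per spot (0 or -50), normalized intensities and a log2 ratio of good over poor performers, per the file headers. How the authors treated background and normalized is not given in the sources used. Arrays were grouped by the labelled performance. Raw intensities were corrected with normexp (offset 50, fitted on all spots), put on the log2 scale and quantile-normalized with the miRNA spots only, and the 3 spots of a probe were averaged. Probes with 2 of 3 spots at flag 0 on both arrays of a group were tested (316) with limma 3.58.1 in R 4.3.3, two-sided, with Benjamini-Hochberg adjustment and a threshold of 0.05. The code was first tested on simulated data. With 2 arrays per group the number of arrays limits the precision, and p-values measure only the spread between these arrays. Differences between replicate arrays had 2.93 (good) and 2.64 (poor) times the variance of the spot noise, so no array was taken for a copy of another. This does not show that the arrays hold separate animals. The members and lists were chosen with earlier results of these data known. Named probes were the members, the 3 nearest patterns of each, probes sharing seed bases, the 3 brightest and 2 most changed other neuron-enriched probes, the brightest probe of each other list, and names in counts of 5 or fewer. miR-27a and miR-27b, which share 6 bases of a seed, and the 4 larger arm pairs were named after their values were seen. Alternatives were other scalings, offsets, filters, spot summaries and variance models, a replicate block and each array left out.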

Additional observations from a re-analysis of the deposited data

How the results depend on the processing

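No member passed in any of the 14 alternatives with all arrays or the 4 without 1 array. The count of passing probes, 16 as reported (10 higher, 6 lower), was 31 with spike-in scaling (10 higher, 21 lower), 37 in the authors' normalized table (6 and 31), 30 with a trended and robust variance model (17 and 13), 7 with offset 1 (6 and 1) and 6 with the median over spots (5 and 1). It was 15 without normalization (12 and 3), 22 with 75th percentile scaling (16 and 6) and 15 in the centred authors' table (11 and 4), and 0 to 0 without any 1 array, with 40 to 59 probes at an unadjusted limma p under 0.05. With the replicate block 13 probes passed (9 and 4), and no member's call changed. The deviations of same-numbered arrays correlated at 0.28 across 272 probes, and since only 2 pairs exist and the labels name nothing shared, the numbers were not taken to pair the arrays. Log2 fold changes turned sign for miR-124 with spike-in scaling (-0.014) and in the authors' table (-0.063), and it was 0 with the median over spots. They turned for miR-124* with 75th percentile scaling (0.0051), cyclic loess (0.0028) and no normalization (0.024). They turned for miR-9 in the authors' table after centring (0.00012) and without normalization (0.0021), and for miR-128 with spike-in scaling (-0.0091). The median of all tested probes was -0.11 with spike-in scaling and -0.08 in the authors' table. Values of miR-9* ran from 0.03 to 0.19 and never turned. The other filters, the other variance model and the replicate block could not change any log2 fold change. Without 1 array miR-124 ran from -0.088 to 0.108, miR-124* from -0.043 to 0.039, miR-9 from -0.08 to -0.05, miR-9* from 0.05 to 0.10 and miR-128 from 0.11 to 0.17. The arm difference of miR-124 ran from -0.12 to 0.14 without 1 array and that of miR-9 from -0.16 to -0.12. The cause of these changes was not tested. The dim signal of miR-124* limits what its values can show, and 2 arrays per group limit all of them.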
